A study of Mus musculus with 4 samples.

Results

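Early lineage genes of mesoderm and endoderm were examined for nearby binding of Wapal, a protein that removes cohesin from chromatin. The 10 genes were T, Eomes, Mixl1, Gsc, Lhx1, Gata4, Gata6, Mesp1, Cer1 and Kdr, chosen by name and located by symbol among the 22350 protein-coding genes that GENCODE M1 places on the mm9 autosomes and X chromosome. All were found. Tagged Wapal (FB Wapal) was expressed in mouse embryonic stem cells (ESCs) that also carried the biotin ligase BirA, and biotinylated Wapal was recovered with its DNA on streptavidin beads (bioChIP-seq). The groups were 2 FB Wapal clones, 1 line of ESCs with BirA and no tagged Wapal as the negative control, and 1 input of sheared genomic DNA, so that FB Wapal and negative control cells shared the ligase and differed in the tagged protein. No sample was treated with a drug or an shRNA, and the labels name no difference in culture between the lines. The labels give no age, sex or passage for the lines, the tagged protein was made from a transgene beside the endogenous gene, each clone is a separately derived line, and lists of regions cannot show which genes the cells expressed, so the cell type label was not checked against markers.

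Both clones are represented by a single deposited list of 8497 regions with MACS scores from 50.0 to 685, where the score is 10 times the negative log10 of the p-value of a region against input. The BirA list held 266 regions. A Wapal-binding site is here a region of the FB Wapal list that shares no base with a BirA region, which left 8323 sites. The lists carry no read counts, so the depth behind a single site is not known, and with 1 list for both clones no value has a spread between replicates. The values below are therefore described and not tested.

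Cohesin holds DNA in loops, and CTCF bound to its motif marks many of the places where cohesin stops. Gastrulation is the stage at which the pluripotent epiblast gives rise to mesoderm and definitive endoderm through the primitive streak. The genes examined act there or shortly after, as transcription factors, a secreted signal antagonist and a receptor, and undifferentiated ESCs keep most such genes silent, many of them under Polycomb marks.

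Of the 10 genes, 8 had at least 1 Wapal-binding site within 100 kb of the TSS, measured from the TSS to the near edge of the site, and 14 sites were found in all. Among all protein-coding genes 60.1% had a site at that distance. The T-box gene T and the homeobox gene Lhx1 had 3 sites each, Gsc and Gata4 had 2, and Eomes, Mixl1, Cer1 and Kdr had 1. The GATA factor gene Gata6 and the bHLH gene Mesp1 had none. The mean was 1.4 sites per gene, against 0.991 over all protein-coding genes. Downstream of the TSS lay 10 of the sites and upstream 4. The split over all protein-coding genes is not given, so these counts are not read as a lean to either side. No BirA region lay within 100 kb of any of the 10 genes. The nearest BirA region was between 1180 kb (Eomes) and 26178 kb (Cer1) away, and removing BirA regions took no site from these windows.

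**Figure D1:**
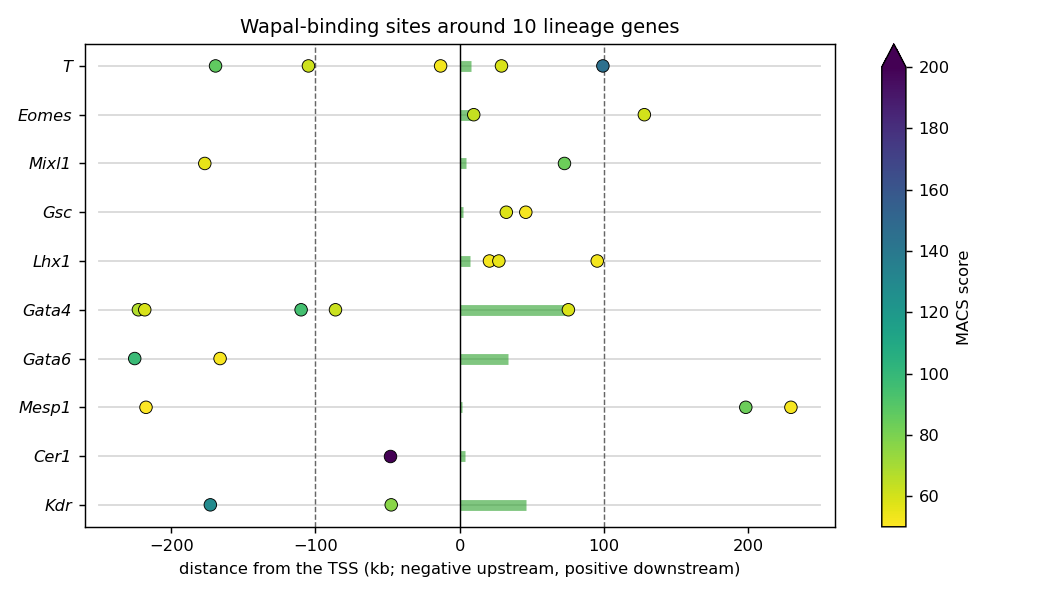
Wapal-binding sites within 250 kb of the 10 lineage genes. Each row is a gene drawn in its direction of transcription, the x axis is the distance from its TSS in kb, the green bar is the gene body, each circle is a site coloured by MACS score (scores over 200 share the darkest colour), and the dashed lines mark 100 kb. The row of Gata6 has no circle between the dashed lines and neither has that of Mesp1, whereas T and Lhx1 have 3 each.

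None of the 14 sites lay in a promoter, defined as a site centre within 2 kb of any annotated TSS, where 9.90% of all sites lay. The 2 kb around the TSS held no site at any of the 10 genes, whereas it did at 2.04% of protein-coding genes. At wider distances the counts were 1 gene within 10 kb (9.14% of all protein-coding genes), 2 genes within 20 kb (18.4%) and 6 genes within 50 kb (38.8%). Up to 20 kb the counts were close to the share over all genes, and at 50 and 100 kb they were above it by about 2 genes of the 10. The latter did not hold for sites scoring at least 100, which lay within 100 kb of 2 of the 10 genes and of 27.8% of all protein-coding genes. Extragenic regions held 8 of the 14 sites, against 54.1% of all sites, and introns held 6, against 33.3%. The introns belonged to T2, annotated as a processed transcript, and to Pde10a, Frem1 and Aatf, and no site lay inside one of the 10 genes.

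The sequences of 9 sites are shown because they hold the 4 exact matches to the CTCF core motif, the sites closest to T on either side, the site with the highest score, and 3 sites with the same motif letters. Each runs 5′ to 3′ along the motif's strand in mm9. The 12 bases of the best match are in capitals, with 15 bases on each side.
Eomes, 9.69 kb downstream, exact match, chr9:118398956-118398997, reverse strand: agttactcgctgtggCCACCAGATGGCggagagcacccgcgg
Gsc, 45.8 kb downstream, exact match, chr12:105665377-105665418, reverse strand: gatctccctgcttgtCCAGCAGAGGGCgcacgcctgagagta
Gata4, 86.1 kb upstream, exact match, chr14:63976997-63977038, forward strand: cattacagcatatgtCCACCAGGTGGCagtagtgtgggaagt
Kdr, 47.5 kb upstream, exact match, chr5:76422469-76422510, forward strand: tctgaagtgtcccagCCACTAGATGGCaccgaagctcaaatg
T, 13.3 kb upstream, 1 mismatch, chr17:8613787-8613828, reverse strand: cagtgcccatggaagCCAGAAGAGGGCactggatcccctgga
T, 28.9 kb downstream, 2 mismatches, chr17:8656512-8656553, forward strand: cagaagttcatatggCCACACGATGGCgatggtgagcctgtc
T, 99.2 kb downstream, 1 mismatch, chr17:8726853-8726894, forward strand: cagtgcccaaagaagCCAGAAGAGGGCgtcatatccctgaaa
Lhx1, 20.6 kb downstream, 1 mismatch, chr11:84317959-84318000, reverse strand: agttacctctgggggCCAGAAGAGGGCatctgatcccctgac
Cer1, 48.2 kb upstream, 2 mismatches, chr4:82579730-82579771, reverse strand: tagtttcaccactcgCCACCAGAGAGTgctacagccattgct

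The CTCF core motif, searched by its consensus of 12 letters on both strands, was found with at most 1 mismatch in 9 of the 14 sites. Of all Wapal-binding sites 74.5% held it, and of regions of the same width placed 5 kb to either side 10.0% did. With at most 2 mismatches a match was present in each of the 14 sites (96.5% of all sites, 49.7% of the regions 5 kb away), and 4 of the 14 held an exact match (28.3% of all sites, 0.746% of the regions 5 kb away). The best match lay within 100 bp of the centre in 9 of the 14 sites, whereas among all sites with a match 79.0% had it that close. A match is a string of letters in the sequence and does not by itself show that CTCF was bound. The GC content of the 14 sites ran from 38.4 to 52.1%, with a median of 44.7%, beside 44.3% for all sites.

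**Figure D2:**
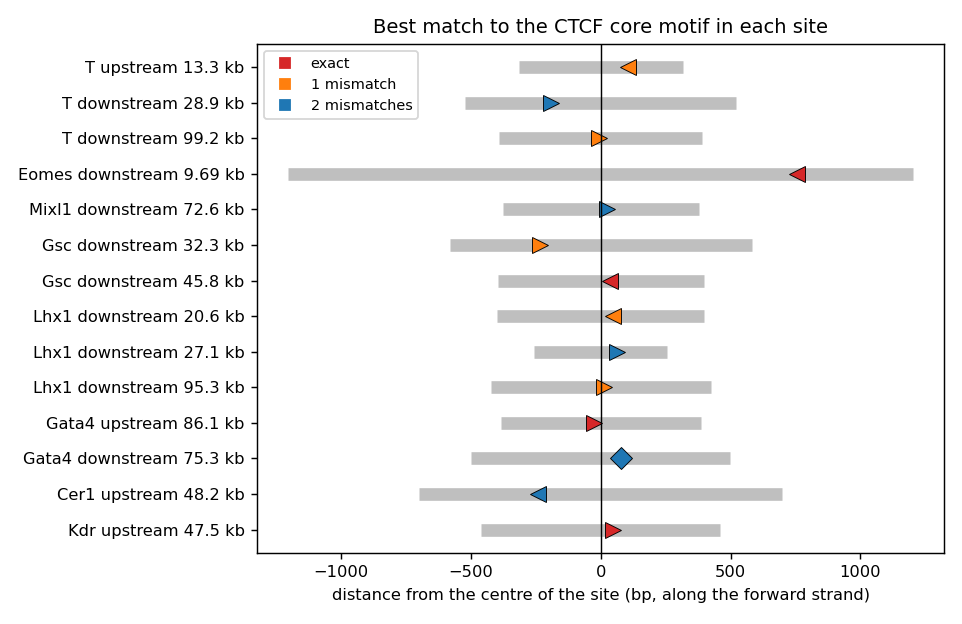
Position of the best match to the CTCF core motif in each of the 14 sites. The x axis is the distance from the site's centre in bp along the forward strand, grey bars are the sites drawn to width, arrowheads point along the strand of the match, a diamond marks a site with equally good matches on both strands, and colour gives the number of mismatches. In the wide site downstream of Eomes the match lay 757 bp from the centre, the farthest of the 14.

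T encodes Brachyury, the T-box factor that drives the formation of posterior mesoderm and the notochord. It lies on the forward strand at chr17:8627288-8635361. The upstream site, chr17:8613387-8614017, was 631 bp wide, ended 13.3 kb before the TSS, lay in an intron of T2 and had a score of 52.5. The first downstream site, chr17:8656203-8657247, was 1045 bp wide, began 28.9 kb after the TSS, which is 20.8 kb past the end of the gene, and had a score of 59.2. These sites bounded an interval of 42.2 kb that held no other protein-coding TSS, the shortest around any of the 10 genes. Only 1.90% of the 21890 protein-coding genes with a site on either side of the TSS lay in an interval that short or shorter. The third site, chr17:8726490-8727272, with a score of 145, began 99.2 kb downstream in an intron of the phosphodiesterase gene Pde10a, and the TSS of Pde10a was 8.25 kb from it. It was the highest score at T, and the sites nearer to the TSS both scored under the median of the list. A further site scoring 61.2 fell just outside the limit, 105 kb upstream.

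Eomes, the other T-box gene, is needed for the definitive endoderm and for early mesoderm to leave the streak. It had the shortest distance of the 10 genes. Its site, chr9:118397017-118399423, began 9.69 kb downstream of the TSS and 1.77 kb past the end of the gene, and had a score of 63.2. The width of 2407 bp was in the 99.2th percentile of all sites, but the score was in the 25.8th. An exact core motif lay in the far part of the site, on the reverse strand. On the other side of Eomes the nearest site was 289 kb upstream, and no other protein-coding TSS lay between the flanking sites.

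Among the homeobox genes, Mixl1 encodes a factor of the primitive streak. The nearest site, chr1:182553831-182554586, lay 72.6 kb downstream with a score of 83.9 and a width of 756 bp. The TSS of Lin9 lay between it and Mixl1 and was 16.9 kb from the site. Upstream of Mixl1 the first site was 177 kb away with a score of 55.4. Gsc, which encodes the Spemann organizer factor goosecoid, had 2 sites, both downstream. The first, chr12:105678113-105679275, was 32.3 kb from the TSS with a score of 57.8 and a width of 1163 bp. Gsc was the protein-coding gene with the nearest TSS, but the start of another annotated transcript lay 21.1 kb from the centre of this site. The second, chr12:105664967-105665762, was 45.8 kb from the TSS with a score of 52.2, and the TSS of the serpin gene Serpina3n was closer, at 20.0 kb. Upstream of Gsc no site was found for 463 kb.

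Lhx1 encodes a LIM homeobox factor of the node and anterior mesendoderm. All 3 of its sites were downstream and in introns of the neighbouring gene Aatf. The site at chr11:84317534-84318331 was 20.6 kb from the TSS with a score of 51.8, the lowest of the 14. The next, chr11:84311307-84311819, was 27.1 kb away with a score of 55.1, and its 513 bp made it the narrowest of the 14. The third, chr11:84242799-84243648, was 95.3 kb away with a score of 52.4. Each of them was closer to the TSS of Aatf than to that of Lhx1. The scores of these sites thus spanned 51.8 to 55.1, just above the lower limit of the list, and upstream of Lhx1 the first site was 268 kb away.

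Gata4 and Gata6 encode zinc finger factors that act in primitive and definitive endoderm and in the heart, and their windows differed. Gata4 had an upstream site, chr14:63976661-63977432, 86.1 kb from the TSS with a score of 62.0. Its downstream site, chr14:63814232-63815228, had a score of 58.6 and was 75.3 kb from the TSS, which is 2.53 kb past the end of this long gene and 1.85 kb from the TSS of the DNA glycosylase gene Neil2. These distances depend on the TSS taken. Of the 7 annotated Gata4 transcripts, 1 begins at the first base of the gene record, 63890529, from which distances were measured, and 2 begin close by at 63889961. A further 3 begin between 63864085 and 63864108, which is 26.4 kb farther in, and from there the downstream site was 48.9 kb and the nearest upstream site 113 kb away. The last begins at 63832444, with the downstream site 17.2 kb away.

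For Gata6, on the forward strand of chromosome 18 from 11052508 to 11085633, the nearest site was 166 kb upstream with a score of 51.5, and the next was 225 kb upstream with a score of 98.5. Downstream the first site was 641 kb from the TSS. The resulting interval of 807 kb was the longest of the 10 genes, longer than or equal to that of 79.0% of protein-coding genes, and held no other protein-coding TSS. Mesp1 encodes a bHLH factor of the earliest cardiac mesoderm. Its nearest sites were 198 kb downstream with a score of 83.8 and 217 kb upstream with a score of 50.4. Unlike the interval around Gata6, that around Mesp1 was gene-rich: 416 kb with 11 other protein-coding TSSs, among them that of its paralog Mesp2.

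Cer1 encodes Cerberus, a secreted antagonist of Nodal, BMP and Wnt signals made by the anterior visceral endoderm. Its site, chr4:82579296-82580693, had the highest score of the 14, 202, which ranked 429th in the list. It was 1398 bp wide and lay 48.2 kb upstream of the TSS in an intron of the extracellular matrix gene Frem1. By the first base of the gene record, Cer1 was the nearest protein-coding gene, but the start of another annotated transcript lay 6.79 kb from the centre of the site. Although the score was high, the best match to the core motif had 2 mismatches. The other flanking site was 295 kb downstream with a score of 145.

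Kdr encodes the VEGF receptor Flk1, which marks early mesoderm with blood and endothelial potential. Its site, chr5:76421985-76422905, was 921 bp wide, lay 47.5 kb upstream of the TSS in an extragenic region with a score of 76.9, and held an exact core motif 45 bp from its centre. No other protein-coding gene record began closer to it than that of Kdr, but the start of another annotated transcript lay 20.0 kb from its centre. A site with the higher score of 129 lay 173 kb upstream. Downstream there was no site for 605 kb, and the interval of 653 kb also held the TSS of the receptor gene Kit.

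Ordered by the nearest site, the genes ran from Eomes and T through Lhx1, Gsc, Kdr, Cer1, Mixl1 and Gata4 to Gata6 and Mesp1. With no replicate error, neighbours such as Kdr (47.5 kb) and Cer1 (48.2 kb), or Mixl1 (72.6 kb) and Gata4 (75.3 kb), differed by less than the width of the sites or by a few kb, and their order has no weight. The median over the 10 genes was 47.9 kb, against 72.5 kb over all protein-coding genes, and 6 of the 10 were nearer than that overall median. The intervals between flanking sites had a median of 321 kb, beside 369 kb over all protein-coding genes. The 10 genes had a median of 1.5 other protein-coding TSSs within 100 kb, where protein-coding genes in general had 3. Of the 14 sites, 8 were closer to the TSS of another protein-coding gene than to that of the lineage gene. The matching share for sites around protein-coding genes in general is not given, so this count is not read as particular to the lineage genes.

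**Figure D3:**
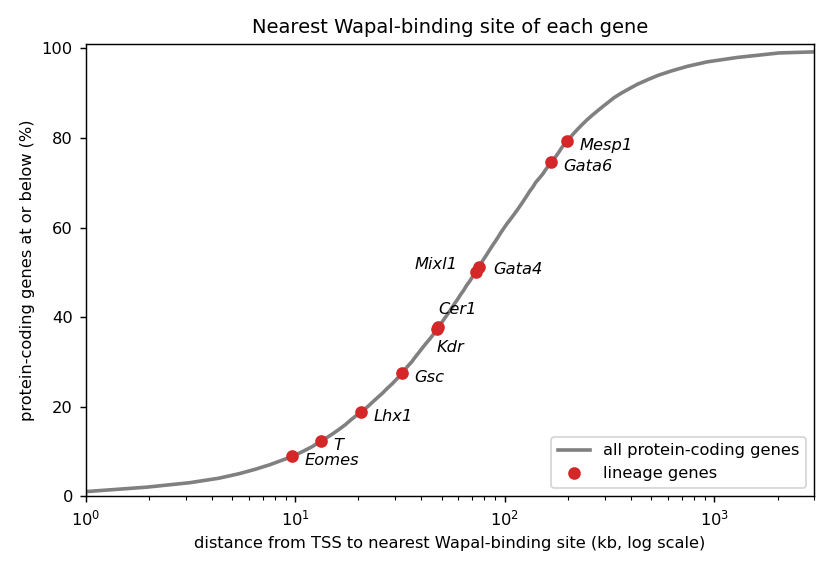
Distance from the TSS to the nearest Wapal-binding site. The grey line gives the percentage of all protein-coding genes with a site at or below each distance in kb on a log axis, and each red point is a lineage gene placed at its own distance. The points run from 9.69 kb for Eomes, with 8.86% of protein-coding genes at or below, to 198 kb for Mesp1, with 79.3%.

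The 14 sites near the 10 lineage genes had low scores. Their median score was 58.9, against 81.4 for all sites, and 11 of the 14 lay below that overall median. A score of at least 100 was reached by 2 of the 14, the Cer1 site and the T site 99.2 kb downstream, whereas 34.6% of all sites reached it. Widths ran from 513 to 2407 bp with a median of 824 bp, close to the median of 812 bp over all sites. The scores are comparable within the list but carry no error of their own, so the difference in medians was not tested. The nearest sites of other genes of these lineages, described below, had a middle score close to that of all sites. That value takes only the nearest site of each gene, so it is not the same measure as the median over the 14 sites.

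**Figure D4:**
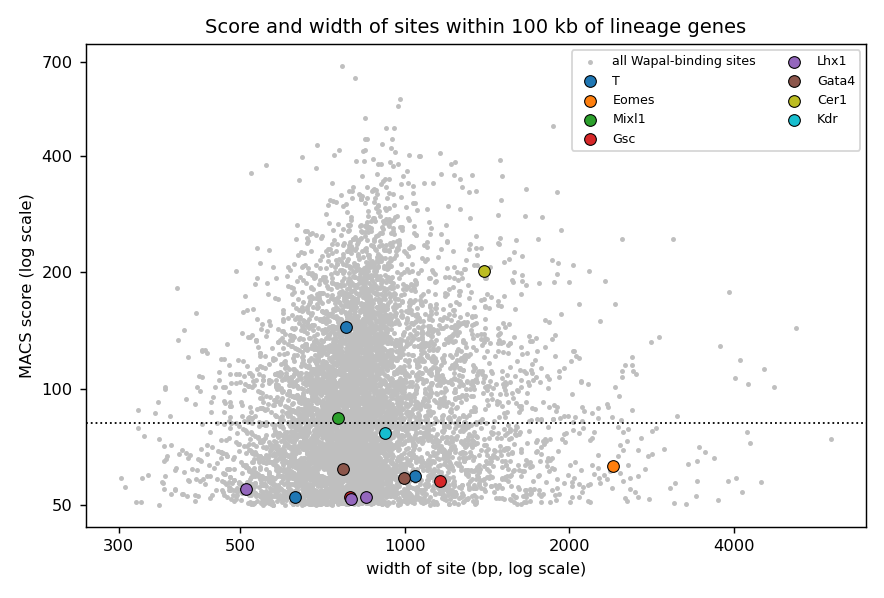
MACS score against width for all Wapal-binding sites (grey) and the 14 sites within 100 kb of lineage genes (coloured by gene), both on log axes. The dotted line is the median score of all sites, 81.4, and 11 of the coloured points lie below it.

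CTCF motifs have a direction, and loops held by cohesin are commonly anchored at motifs that face each other. The strand of the best match, with at most 2 mismatches, was therefore read at the nearest site on each side of the TSS, however far away. Eomes and Gsc lay between motifs that faced each other, 2 of the 9 genes for which a direction could be read, and this was the case for 26.6% of protein-coding genes with such a reading. T, Gata6, Mesp1 and Kdr lay between motifs that pointed away from each other (26.2% of protein-coding genes). Mixl1, Lhx1 and Cer1 lay between motifs on the same strand (47.2%). For Gata4 the direction could not be read, because equally good matches lay on both strands of the downstream site. With at most 1 mismatch the directions at Eomes, Gsc, Gata6, Mesp1, Kdr and Lhx1 could still be read and were as stated. Neighbouring genes share pairs of sites, and the 16346 protein-coding genes with a reading rest on 4340 pairs. Of these distinct pairs 31.9% had motifs that faced each other.

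A list of 34 other genes of these lineages, none of them among the 10, was described in the same way. Within 100 kb, 25 of them (73.5%) had a Wapal-binding site, beside 60.1% of all protein-coding genes. Within 20 kb it was 11 (32.4%, beside 18.4%), within 10 kb 6 (17.6%, beside 9.14%) and within 2 kb 0 (beside 2.04%). The median distance to the nearest site was 50.1 kb, against 72.5 kb over all protein-coding genes. The nearest sites of the 25 genes scored from 51.6 (Hhex) to 270 (Foxf1a). The middle score was 82.5 (Cdx1), beside a median of 81.4 for all sites. It counts only the nearest site of each gene, whereas the median of 58.9 above covers all 14 sites near the 10 lineage genes. By nearest site alone, the 8 lineage genes with a site within 100 kb scored 51.8 (Lhx1), 52.5 (T), 57.8 (Gsc) and 58.6 (Gata4). The others scored 63.2 (Eomes), 76.9 (Kdr), 83.9 (Mixl1) and 202 (Cer1). Of the 10 genes of gastrulating mesoderm 7 had a site within 100 kb, of 6 heart and lateral mesoderm genes 4, of 6 blood and endothelial genes 4, of 8 endoderm genes 6, and of 4 signals and antagonists 4. The 6 genes with a site within 10 kb were Dkk1, a secreted Wnt antagonist (4.73 kb), Snai1, which represses E-cadherin (5.39 kb), Flt1, a VEGF receptor (7.48 kb), the endothelial adhesion gene Pecam1 (7.70 kb), Pdgfra, a receptor of paraxial mesoderm (8.44 kb), and Wnt3, the ligand that induces the streak (9.69 kb). All of these sites were upstream of the TSS except that of Pecam1, and their scores ran from 56.3 at Flt1 to 139 at Pecam1. Lefty2, a Nodal antagonist, had its nearest site 17.9 kb upstream, and this was the same site, with a score of 55.4, that bounds Mixl1 on its upstream side. Mesp2 lay in the same interval as Mesp1, and its nearest site was 201 kb away.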

How the data were processed

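Biotin-mediated ChIP-seq of 2 FB Wapal clones, BirA cells and input was analysed. According to the study's methods and the submitters' processing notes, the authors used Bowtie on mm9 with unique placements retained, then MACS 1.4.2 against input at its default p-value, and the deposited value of a region is the MACS score. The rule that joined the clones is not given in the sources used here. Regions that MACS did not call carry no value, so a missing site means no call, not no binding. Unique alignment can leave repeated sequence without reads.

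Starts of the deposited regions were read as 0-based. A TSS was the first base of the GENCODE M1 gene record, distances ran to the near edge of a site, and features were assigned by site centre. Motif matches were ranked by mismatches, then closeness to the centre. The members, lists and rules were chosen with earlier results of these data known. All 10 genes are named, with other lineage genes having a site within 10 kb, and host or nearest genes. Mesp2, Lefty2 and Kit were named after their values were seen. No test was made, since 1 list holds both clones. On simulated data with known answers the functions were tested, and 200 of 200 planted motifs were found. These were exact motifs in sequence of A and T only, so the search with mismatches was not tested in this way. Alternatives covered BirA removal, score, distance, TSS, window, motif and promoter. Python 3.11.15, numpy 2.4.6, pandas 2.3.3, pysam 0.24.0 and matplotlib 3.10.9 were used.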

Additional observations from a re-analysis of the deposited data

How the results depend on the processing

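With a score of at least 100 as the limit, 2 sites and 2 genes (T and Cer1) remained within 100 kb, 0 genes had a site within 20 kb, the share of all protein-coding genes with a site within 100 kb was 27.8%, and the median score near the lineage genes was 173. These follow from the smaller list, and the nearest site of 9 of the 10 genes moved by more than 1.5 times, to between 99.2 kb (T) and 1662 kb (Eomes). A window of 50 kb held 9 sites, at 6 of the 10 genes, where 38.8% of protein-coding genes had a site. A window of 200 kb held 22 sites, at 10 of the 10 genes, where 79.5% of protein-coding genes had one. Counting from the nearest TSS of any transcript gave 4 genes with a site within 20 kb, since the distance became 17.2 kb at Gata4 and 17.9 kb at Lhx1. By that count 62.3% of protein-coding genes had a site within 100 kb. The matching shares of all protein-coding genes within 20 kb are not given for this count or for scores of at least 100. The 4 genes and 0 genes within 20 kb therefore have no baseline. From the 3 Gata4 transcript starts that lie within 100 bp of each other, a choice made after the data were seen, its nearest site was at 48.9 kb. An exact core motif was in 28.6% of the sites near lineage genes and 28.3% of all sites, and a match with at most 2 mismatches in 100% and 96.5%. Of all sites scoring at least 100, 78.2% held the motif with at most 1 mismatch, and of the 2 such sites near lineage genes 50.0% did. With promoters defined by 5 kb, 1 of the 14 sites, that downstream of Gata4 near Neil2, counted as a promoter site. Removing sites within 1 kb of BirA regions, keeping all regions and measuring to the site centre left the numbers of sites and genes as they were. No replicate could be left out and no paired analysis was possible because 1 list holds both clones. The lists give no depth, so sites scoring close to 50.0 have unknown precision.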

Other observations

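The motif letters ccagaagagggc were the best match in 3 of the 14 sites near lineage genes, those 13.3 and 99.2 kb from T and 20.6 kb from Lhx1, a likeness seen after the sequences had been read. Among the 1237 different best matches in all sites they were the most frequent, in 479 sites or 5.76%, with a median score of 70.0. They were also the best match in 517 of the 16633 regions 5 kb away, or 3.11%. By contrast, each of the other best matches near the lineage genes, exact or not, was found in 0.132% of those regions or fewer. Some of the inexact ones were rare in the sites too, such as ccaccagagagt at Cer1 (0.0120% of sites, 0.0301% of the regions 5 kb away). The letters ccactagatggc, found at Kdr, were the best match in 255 sites (3.06%) and in 0.0361% of the regions 5 kb away. The letters ccaccaggtggc, upstream of Gata4, gave 250 sites (3.0%) and 0.0661%. Whether the sites with the most frequent letters lie in repeated elements was not tested, since the genome copy used carries no repeat marks.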
